A study of Mus musculus with 18 samples.

Results

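The 10 genes described here encode the machinery that places peptides on major histocompatibility complex (MHC) class I molecules: B2m, H2-K1, H2-D1, Tap1, Tap2, Tapbp, Psmb8, Psmb9, Psmb10 and Nlrc5. They were chosen by name with earlier results of these data known, as were the other gene lists below. All 10 were found among the 55487 genes of the count table and passed the filter on low counts that left 12820 genes for testing. They were followed over all 18 libraries, 3 for each of 3 labelled T cell populations and 2 genotypes. T cells labelled CD8+, CD4+ or Treg (regulatory T cells) came from spleens of mice that all carried a YFP/cre allele of Foxp3, whose protein is the master regulator of the Treg lineage. Of these libraries, 9 came from such mice alone (strain Foxp3 YFP/cre, here the control) and 9 from mice also labelled Ebi3 -/- (strain Foxp3 YFP/cre Ebi3 -/-), Ebi3 being a chain of the cytokines IL-27 and IL-35. No ages are given in the labels. Sorted cells spent 72 h in culture with anti-CD3 bound to the plate (2 µg/ml), IL-2 (10 ng/ml) and anti-CD28 (2 µg/ml) before their RNA was read as 3' end tags. The comparison asks whether the loss of Ebi3 changed this machinery in activated T cells, and how its transcripts differed among the labelled populations.

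Nearly all nucleated cells show samples of their own proteins on class I molecules, which CD8+ T cells inspect. Proteasomes cut cytosolic proteins into peptides, the TAP transporter moves these into the endoplasmic reticulum, and tapasin and its partners load them onto a heavy chain paired with beta-2 microglobulin. In lymphocytes, and in other cells under interferon gamma, 3 inducible catalytic subunits replace those of the standard proteasome to form the immunoproteasome, and Nlrc5 acts as a coactivator of class I gene transcription.

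The libraries held between 841892 and 2255950 counts. Those labelled Treg stood apart: they held 841892 to 1089003 counts and 20034 to 20596 genes with a count, against 16193 to 17338 genes in the deeper CD4 and CD8 libraries. Foxp3 itself had 0 or 1 count in every library, and whether 3' tags of the Foxp3 YFP/cre allele can reach its counted exons was not tested. Cd4 had 142 to 358 counts in the CD4 libraries and 0 or 1 in the CD8 libraries, and Cd8a had 295 to 487 counts in the CD8 libraries and 0 to 3 in the CD4 libraries. The Treg-labelled libraries held both, with 28 to 71 counts of Cd4 and 26 to 38 of Cd8a, while Il2ra, the high-affinity IL-2 receptor chain usually abundant in regulatory T cells, was lower there than in CD4 libraries (log2 fold change −2.23, edgeR adjusted p = 1.01e-06). They are therefore called Treg-labelled below. Ebi3 tags were present in both genotypes, with 47 to 71 counts per library in CD8 cells labelled Ebi3 -/- against 55 to 60 in their controls, 47 to 50 against 70 to 83 in CD4 cells, and 20 to 36 against 21 to 42 in Treg-labelled cells. The deleted part of Ebi3 is not given in the labels, so tags at its 3' end do not check the genotype, and the libraries are named by their labels.

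The sets of libraries were not equally distinct from one another. Replicates 1 and 2 of the Treg-labelled controls, and replicates 1 and 3 of the Treg-labelled Ebi3 -/- cells, differed by less than the sampling noise of their counts and were each counted as 1 sample, which left 16 samples. Of the 9 pairs of Treg-labelled libraries that cross the genotypes, 4 also differed by no more than sampling noise, so the independence of these libraries is uncertain. Nothing in the labels says that replicates came from separate animals or cultures, and p-values measure the spread between these samples only.

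Of the 10 genes, 7 lie on chromosome 17 in the MHC. In GRCm38 with GENCODE M21 annotation, H2-K1, a classical heavy chain, occupies chr17:33996017-34000347 on the minus strand, and H2-D1, the other classical heavy chain studied, occupies chr17:35262730-35267499 on the plus strand. Tapbp (tapasin) lies at chr17:33915899-33929292. Psmb9 (chr17:34181987-34187764, minus strand), Tap1 (chr17:34187553-34197225), Psmb8 (chr17:34197721-34201454) and Tap2 (chr17:34203527-34216321) follow one another within 34.3 kb. B2m lies elsewhere, at chr2:122147686-122153083, as do Nlrc5 at chr8:94434356-94527272 and Psmb10 at chr8:105935735-105938444 on the minus strand.

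The promoters of 8 of the 10 genes were matched by symbol in RefSeq (GRCm38.p6), and 4 stretches are shown because the genes they precede are compared below: those of the surface molecule (B2m, H2-K1 and H2-D1), and the short stretch between the RefSeq starts of Psmb9 and Tap1, which are read in opposite directions. Each runs 5′ to 3′. The first 3 are the 250 bases before the start that RefSeq gives the gene, read on its own strand, and the last is the plus strand of the 225 bases between the RefSeq starts of Psmb9 and Tap1. These starts can differ from those of GENCODE given above: the H2-D1 window lies within the longer GENCODE gene, and in GENCODE Psmb9 and Tap1 overlap at chr17:34187553-34187764. Distances to a start below are to the RefSeq start. Capitals mark matches on either strand to the interferon-stimulated response element (GAANNGAAA or GAAANNGAAA), to the TGACG site of the X2 box, to the CCAAT box (ATTGG on the other strand) and to the NF-kappaB consensus.
B2m, chr2:122147437-122147686, plus strand: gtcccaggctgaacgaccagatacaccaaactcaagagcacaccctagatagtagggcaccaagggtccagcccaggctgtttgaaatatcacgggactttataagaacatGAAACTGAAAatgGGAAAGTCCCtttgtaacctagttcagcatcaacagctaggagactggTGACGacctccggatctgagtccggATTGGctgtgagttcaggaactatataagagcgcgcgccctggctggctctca
H2-K1, chr17:34000348-34000597, minus strand: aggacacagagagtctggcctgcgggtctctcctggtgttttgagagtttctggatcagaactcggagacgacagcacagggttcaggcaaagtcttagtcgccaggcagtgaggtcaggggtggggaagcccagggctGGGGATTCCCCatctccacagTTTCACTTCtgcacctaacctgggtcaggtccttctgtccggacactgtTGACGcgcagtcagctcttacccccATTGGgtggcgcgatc
H2-D1, chr17:35262844-35263093, plus strand: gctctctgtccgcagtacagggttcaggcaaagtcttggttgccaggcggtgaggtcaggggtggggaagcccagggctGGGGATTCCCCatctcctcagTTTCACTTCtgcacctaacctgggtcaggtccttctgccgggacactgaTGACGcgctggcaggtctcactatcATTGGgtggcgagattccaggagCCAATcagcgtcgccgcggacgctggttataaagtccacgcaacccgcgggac
Psmb9 to Tap1, chr17:34187331-34187555, plus strand: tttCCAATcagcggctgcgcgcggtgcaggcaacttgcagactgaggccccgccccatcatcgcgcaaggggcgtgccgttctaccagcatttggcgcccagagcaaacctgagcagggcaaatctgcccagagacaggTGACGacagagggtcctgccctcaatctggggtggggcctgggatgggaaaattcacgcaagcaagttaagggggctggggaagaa

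All 3 surface molecule promoters held each of these motifs, and in all 3 the TGACG and the reversed CCAAT box started 25 bases apart. That arrangement was present in 25 of 27025 mouse promoters of the same length (0.093%), whereas TGACG alone was present in 17.9% of them, CCAAT in 34.5%, either form of the response element in 8.9% and the NF-kappaB consensus in 3.8%. Only the spacing seen in these 3 promoters was counted, so their match to it is no test, and enrichment was not tested. In H2-K1 and H2-D1 the NF-kappaB matches overlap one another on both strands, which is why a single capital run is shown. Their 2 windows share an identical run of 47 bases, which begins 141 bases before the start of H2-K1 and 201 bases before that of H2-D1. The stretch between Psmb9 and Tap1 held 1 TGACG, 86 bases before the start of Tap1, and 1 CCAAT box close to Psmb9, without the 25-base arrangement. Of the searched promoters not shown, those of Psmb8 and Psmb10 held 0 matches to any of the motifs, and that of Tapbp held only the CCAAT box (2 matches). These are matches of letters only.

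Between libraries labelled Ebi3 -/- and their controls, 0 of the 10 transcripts passed the criterion used, an adjusted p under 0.05 in edgeR's quasi-likelihood test with Benjamini-Hochberg adjustment over all 12820 genes. The count of members called was 0 in CD8 cells, where 0.0078% of all genes were called, and 0 in CD4 cells and in Treg-labelled cells, where 0% of all genes were called. It was also 0 for the mean of the 3 populations (0% of all genes) and for a test of whether the effect differed among populations (0% of all genes). DESeq2 called 0 members in each of these 5 comparisons too. At an unadjusted p under 0.05, edgeR picked 2 members in CD8 cells, 2 in CD4 cells, 0 in Treg-labelled cells, 1 for the mean and 3 for the difference among populations, beside 1940, 842, 192, 360 and 1419 of all genes. The median log2 fold change of the members was 0.06 in CD8 cells, −0.13 in CD4 cells and 0.06 in Treg-labelled cells, against a median over all genes of 0 in the CD8 and CD4 cells and −0.003 in the Treg-labelled cells.

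**Figure D1:**
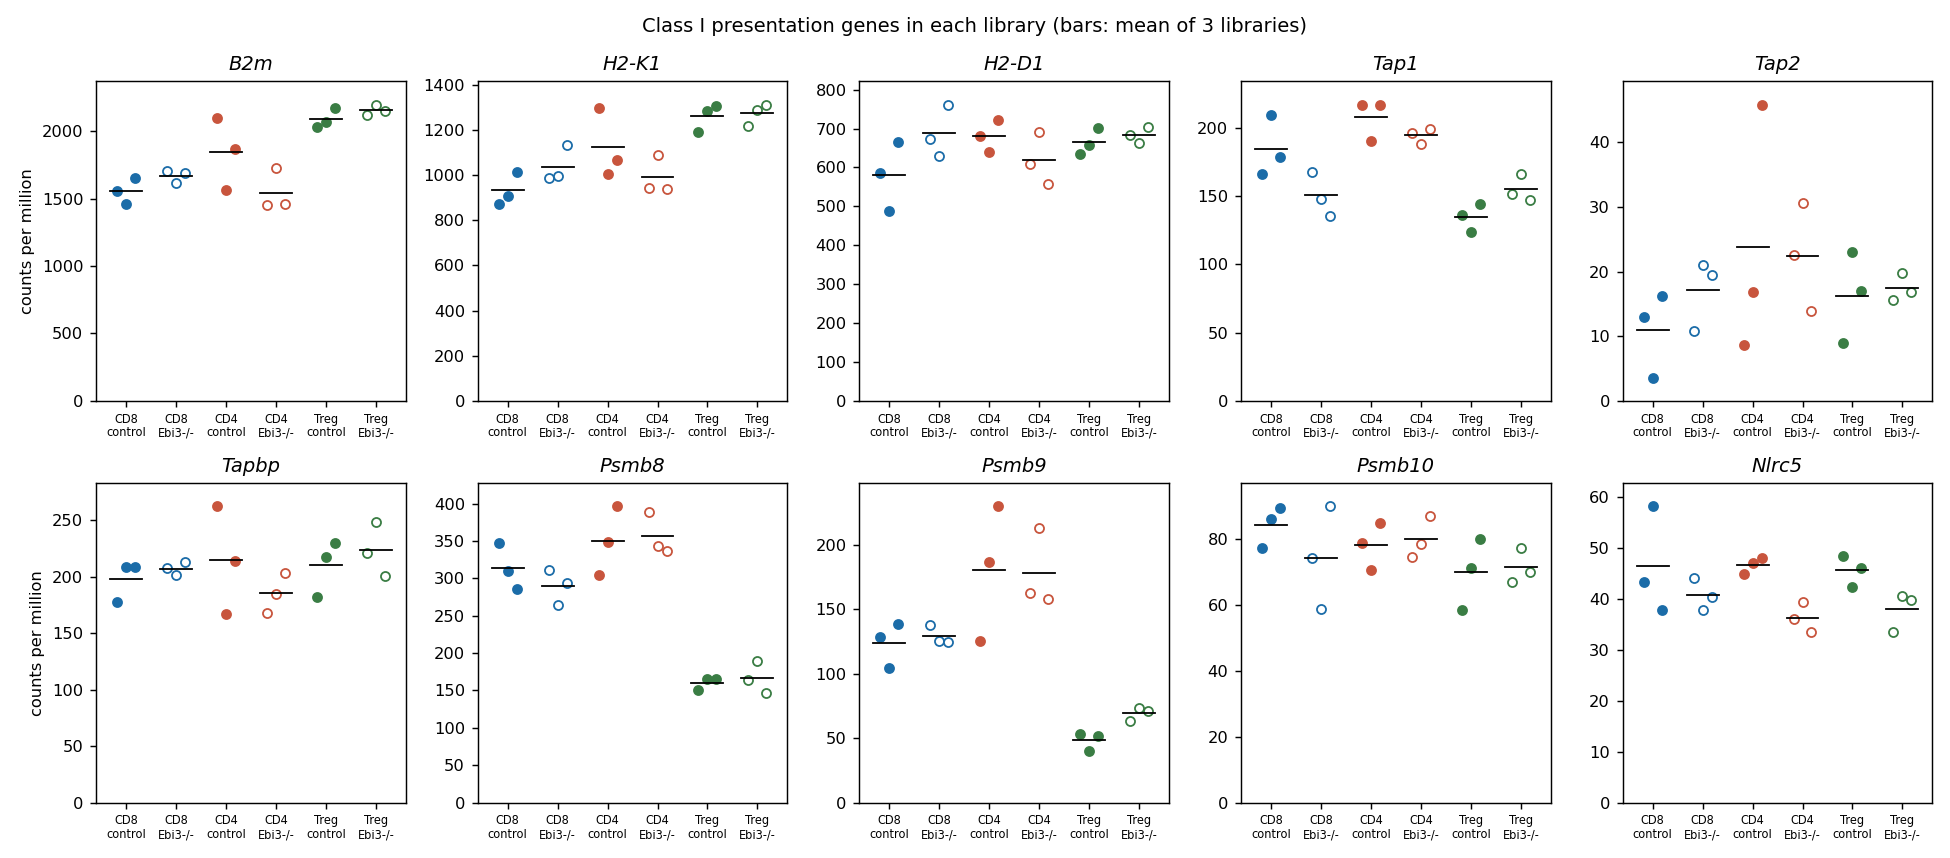
Levels of the 10 genes (vertical axes, CPM, from 0) in each of the 18 libraries, by population and genotype; filled points are controls, open points are labelled Ebi3 -/-, and bars are means of 3 libraries. Psmb8 and Psmb9 sit lower in every Treg-labelled library than in every other library, while the genotypes of a population lie close together for most genes.

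**Figure D2:**
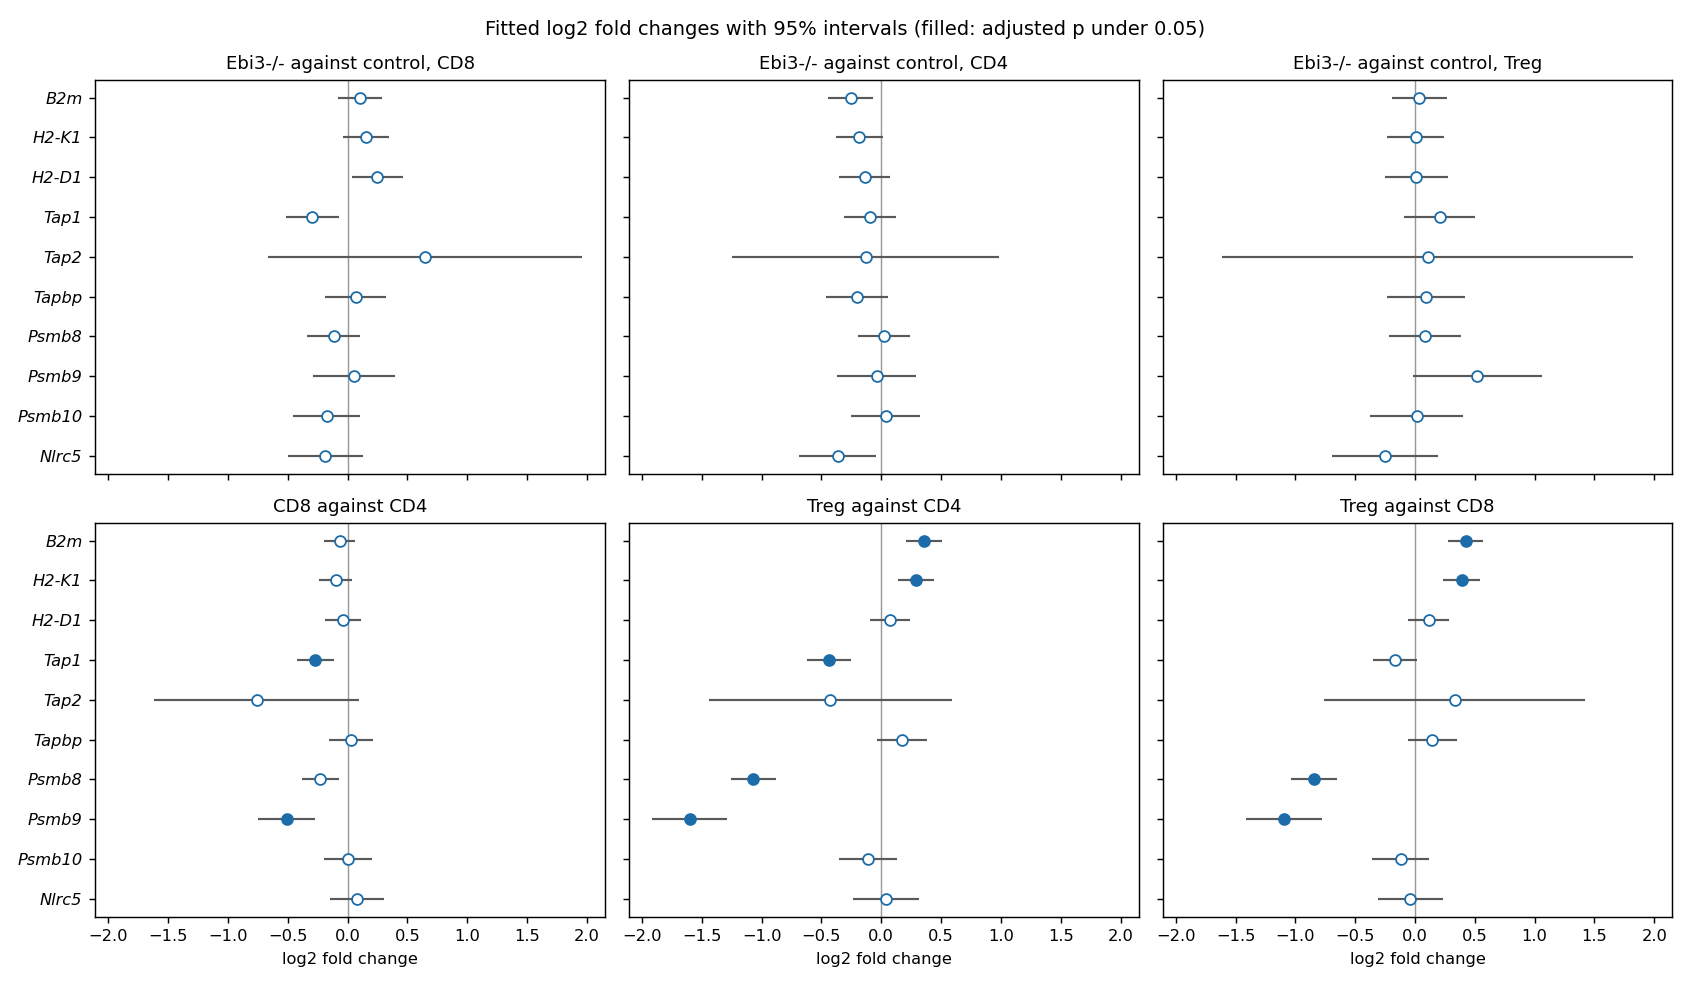
Fitted log2 fold changes (horizontal axes) of the 10 genes in 6 comparisons, with 95% intervals as lines; filled points passed an adjusted p of 0.05. No point is filled in the upper row (Ebi3 -/- against control), and Tap2 has the widest intervals.

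The largest unadjusted signals between genotypes were small and differed between populations. In CD8 cells Tap1, 1 chain of the peptide transporter, had 166, 209 and 178 CPM in the controls (CPM is the counts-per-million level, here on library sizes scaled by the trimmed mean of M values) and 168, 148 and 136 CPM in the cells labelled Ebi3 -/-. The groups overlapped, and the log2 fold change of −0.29 (SE 0.108) did not pass (edgeR adjusted p = 0.211). H2-D1 went the other way in the same cells, with 586, 488 and 665 CPM in the controls and 672, 630 and 761 CPM with the Ebi3 -/- label, again overlapping (log2 fold change 0.25, edgeR adjusted p = 0.26). Neither was near the threshold in the other populations: the log2 fold change of Tap1 was −0.10 (SE 0.107) in CD4 cells and 0.21 (SE 0.144) in Treg-labelled cells, and that of H2-D1 was −0.14 (SE 0.104) and 0.01 (SE 0.129).

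B2m, the light chain that every class I molecule needs, had 2099, 1564 and 1867 CPM in the CD4 controls and 1449, 1723 and 1458 CPM in CD4 cells labelled Ebi3 -/-. The groups overlapped, and the log2 fold change was −0.26 (SE 0.092, edgeR adjusted p = 0.754). Its values in CD8 cells lay between 1458 and 1650 CPM in the controls and between 1615 and 1703 CPM with the Ebi3 -/- label, a log2 fold change of 0.10 (SE 0.091). Beside these opposite signs, the 12 B cell markers also had opposite signs: 12 of 12 were above 0 in CD8 cells (median log2 fold change 0.48) and 12 of 12 were below 0 in CD4 cells (median −0.40), none past the threshold. With the level of those markers as a covariate, chosen after the data were seen, the B2m value became −0.06 in CD8 cells and −0.12 in CD4 cells, and that of H2-D1 in CD8 cells became 0.10. The covariate differed between genotypes and ran with B2m in these same libraries (Pearson's r 0.84 in CD8 and 0.98 in CD4 libraries). Smaller values could follow from that alone, so the fit cannot separate the marker level from the label.

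Nlrc5, the class I coactivator, was the member with the lowest unadjusted p for the mean of the 3 populations. Its controls had 43.4, 58.2 and 37.8 CPM in CD8 cells, and the cells labelled Ebi3 -/- had 44.1, 37.9 and 40.5 CPM. In CD4 cells the controls had 44.9, 47.05 and 48.05 CPM against 36.1, 39.5 and 33.5 CPM, and in Treg-labelled cells the values were 48.4, 42.3 and 46.1 CPM against 33.5, 40.6 and 39.9 CPM. The genotypes overlapped in CD8 cells and did not overlap in the other 2 populations, and the share of all genes without overlap was not counted. The log2 fold change was −0.19 in CD8, −0.37 in CD4 and −0.25 in Treg-labelled cells, and its mean of −0.27 (SE 0.103, 95% interval −0.48 to −0.06, unadjusted p = 0.0145) did not pass adjustment (edgeR adjusted p = 1).

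Psmb9, the inducible subunit that takes the place of the caspase-like one, had 53.5, 39.9 and 51.8 CPM in Treg-labelled controls and 63.4, 73.6 and 71.3 CPM in Treg-labelled cells with the Ebi3 -/- label. These did not overlap, but rested on 33 to 78 counts per library and on 2 samples a genotype. Again the share of all genes without overlap was not counted. The log2 fold change of 0.52 (SE 0.261, 95% interval −0.02 to 1.06) did not pass (edgeR adjusted p = 1). In CD8 and CD4 cells the same difference was 0.06 (SE 0.165) and −0.04 (SE 0.158). For Psmb8 the differences between genotypes were −0.12 in CD8, 0.02 in CD4 and 0.08 in Treg-labelled cells, and for Psmb10 they were −0.18, 0.04 and 0.01. Tap2, with 7 to 82 counts per library and 8.69 to 45.8 CPM among the CD4 controls, had an SE of 0.602 in CD8 cells, and its 95% interval there ran from −0.66 to 1.96.

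The labelled populations differed more than the genotypes. In the Treg-labelled cells the surface molecule genes B2m and H2-K1 were higher and the immunoproteasome genes Psmb8 and Psmb9 were lower than in either other population. Against CD4 cells, averaged over genotypes, B2m and H2-K1 were higher and Tap1, Psmb8 and Psmb9 were lower, 2 and 3 of 10 members where 31.7% of all genes were called higher and 23.8% lower. Against CD8 cells, B2m and H2-K1 were higher and Psmb8 and Psmb9 lower, 2 and 2 of 10 where 32.2% of all genes were called higher and 24.9% lower. These shares are close to the background of comparisons in which 7122 and 7324 of 12820 genes were called, and both comparisons share the Treg-labelled libraries. In bulk libraries, fewer cells of a type and less RNA per cell cannot be told apart.

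Among the surface molecule genes, H2-K1 had 873, 908 and 1013 CPM in CD8 controls and 987, 994 and 1131 CPM in CD8 cells labelled Ebi3 -/-. In CD4 cells it had 1298, 1004 and 1067 CPM in controls and 941, 1089 and 936.5 CPM with the Ebi3 -/- label. The Treg-labelled libraries held 1191, 1283 and 1305 CPM in controls and 1219, 1289 and 1311 CPM with the Ebi3 -/- label, above every CD8 library and above every CD4 library but the first control. H2-K1 was thus higher in Treg-labelled than in CD4 cells by a log2 fold change of 0.29 (SE 0.074, edgeR adjusted p = 0.0016) and higher than in CD8 cells by 0.39 (SE 0.074, edgeR adjusted p = 5.77e-05). The share of all genes that lay above every CD8 library in this way was not counted. The difference from CD4 cells did not pass within the controls alone, at 0.20 for H2-K1 (edgeR adjusted p = 0.148) and 0.21 for B2m (edgeR adjusted p = 0.103), nor for H2-K1 without the filter on low counts (0.16, edgeR adjusted p = 0.0944).

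B2m had 2033, 2069 and 2172 CPM in Treg-labelled controls and 2119, 2195 and 2147 CPM in their Ebi3 -/- counterparts. Every one of these lay above the 6 CD8 libraries (1458 to 1703 CPM), and 1 CD4 control library, at 2099 CPM, fell among them. As for H2-K1, the share of all genes that separated from CD8 libraries was not counted. The log2 fold change of B2m was 0.36 against CD4 cells (SE 0.072, edgeR adjusted p = 0.00012) and 0.42 against CD8 cells (SE 0.072, edgeR adjusted p = 1.14e-05). H2-D1, at 488 to 761 CPM over all 18 libraries, did not pass in either comparison (0.07 against CD4 and 0.11 against CD8 cells). CD8 and CD4 cells did not differ past the threshold in any of these genes, with log2 fold changes of −0.07 for B2m (95% interval −0.20 to 0.07), −0.10 for H2-K1 (−0.24 to 0.04) and −0.04 for H2-D1 (−0.19 to 0.11).

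**Figure D3:**
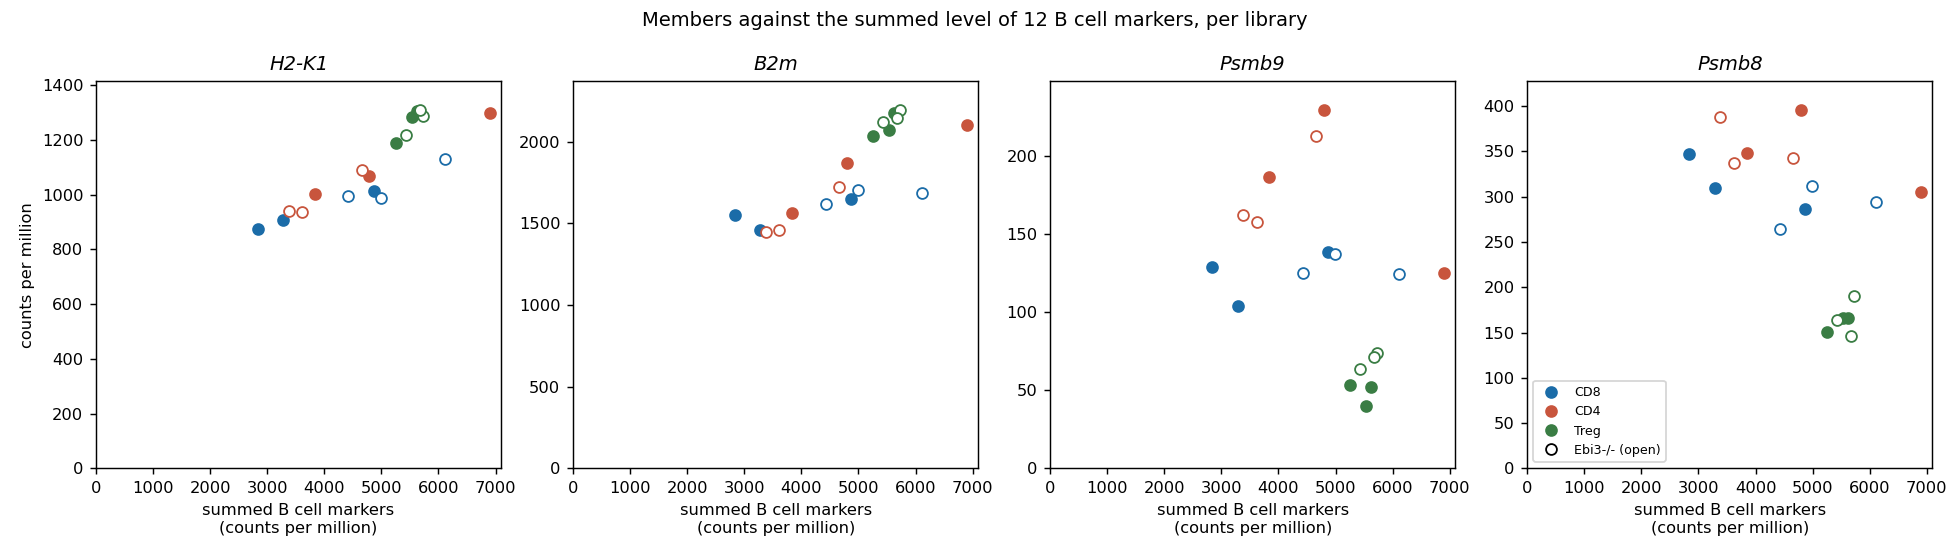
H2-K1, B2m, Psmb9 and Psmb8 (vertical axes, CPM) against the summed level of 12 B cell markers (horizontal axes, same unit) in the 18 libraries; colours are populations and open points are labelled Ebi3 -/-. H2-K1 and B2m are high where the markers are high, and Psmb9 and Psmb8 of the Treg-labelled libraries lie below the other libraries at the same marker level.

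The surface molecule genes moved with markers of B cells, with hemoglobin and, inversely, with T cell genes. How many of all genes did so was not counted, and which of these lists they followed was not tested. Summed over 12 markers, among them Ighm (the IgM heavy chain), Cd79a and Ms4a1, the level was 2832 to 6114 CPM in CD8 libraries, 3386 to 6896 CPM in CD4 libraries and 5248 to 5731 CPM in Treg-labelled libraries, and 0 of the 12 markers lacked counts. Over the 12 CD4 and CD8 libraries, 6 of each label and scaled together, Pearson's r of log2 values with this sum was 0.92 for H2-K1 (0.96 within the 6 CD8 and 0.99 within the 6 CD4 libraries), 0.83 for B2m (0.84 and 0.98), 0.77 for H2-D1 (0.84 and 0.66) and 0.73 for Tapbp (0.76 and 0.85). It was −0.40 for Psmb8 (−0.61 and −0.57). For Tap1 it was −0.14 and for Psmb9 0.01, but these had opposite signs within the populations, at −0.59 in CD8 and 0.63 in CD4 libraries for Tap1 and at 0.42 and −0.29 for Psmb9. The T cell genes (Cd3d, Cd3e, Lck and others, 1408 to 2444 CPM in sum) ran the other way, at −0.87 with H2-K1 (−0.96 within each) and −0.79 with B2m (−0.88 and −0.91), and hemoglobin transcripts ran with the B cell markers (0.90 with H2-K1).

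Of the 12 B cell markers, 6 were higher in Treg-labelled than in CD4 cells and 6 than in CD8 cells, with 0 lower, and of 10 T cell genes 5 were lower in each comparison with 0 higher. Of 6 tested myeloid and dendritic markers 4 were higher in each. Their sum was 71.6 to 82.9 CPM in Treg-labelled libraries and 22.2 to 47.1 CPM in the others, and Clec9a, Siglech and Cd14 never exceeded 3 counts. The part of these cells in the higher H2-K1 and B2m was not tested beyond 1 covariate fit, added after the data were seen. With the B cell marker level in the model of all 16 samples, the log2 fold change of H2-K1 fell to 0.20 against CD4 cells (edgeR adjusted p = 0.0029) and 0.28 against CD8 cells (edgeR adjusted p = 7.14e-05). That of B2m fell to 0.28 and 0.33.

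In peptide transport, Tap1 was lower in Treg-labelled cells than in CD4 cells. The CD4 libraries held 216, 191 and 217 CPM in controls and 196, 188 and 199 CPM with the Ebi3 -/- label, and the Treg-labelled ones 136, 123 and 144 CPM in controls and 152, 166 and 147 CPM with the Ebi3 -/- label. The 6 and 6 libraries did not overlap, and the log2 fold change was −0.44 (SE 0.09, edgeR adjusted p = 0.000138). The share of all genes without such an overlap was not counted. CD8 libraries lay between, at 136 to 209 CPM, and overlapped both. There 0 members were higher and 2 lower than in CD4 cells, Tap1 and Psmb9, where 2.94% of all genes were called higher and 2.51% lower. For Tap1 the difference was −0.27 (SE 0.076, edgeR adjusted p = 0.0294), and it no longer passed when any 1 of 7 libraries was left out, or within the controls (−0.17) or the Ebi3 -/- groups (−0.37) alone. Its difference between Treg-labelled and CD4 cells did not pass within the Ebi3 -/- groups (−0.29, edgeR adjusted p = 0.0614). Against CD8 cells the Treg-labelled value was −0.17 (edgeR adjusted p = 0.11). It passed at −0.27 on plain library totals (edgeR adjusted p = 0.0146), a scaling that moved the median of all genes from 0.07 to −0.03. Within the controls it was −0.42 (edgeR adjusted p = 0.0083) and within the Ebi3 -/- groups 0.08 (edgeR adjusted p = 0.648).

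Tap2, the partner of Tap1, had 8.92 to 22.98 CPM in Treg-labelled, 3.54 to 20.99 CPM in CD8 and 8.69 to 45.8 CPM in CD4 libraries, and no difference passed. The CD8 against CD4 value was −0.76 with an SE of 0.393 (edgeR adjusted p = 0.422). Tapbp, which holds the heavy chain near the transporter, ranged from 167 to 262 CPM over all libraries with overlapping populations (0.17 against CD4 and 0.14 against CD8 cells). Without the first CD4 control library, the one highest in B cell markers, its difference between Treg-labelled and CD4 cells passed at 0.24 (edgeR adjusted p = 0.0236).

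Of the 3 immunoproteasome subunits, Psmb9 and Psmb8 separated the Treg-labelled libraries from all others, and Psmb10 did not. How many of all genes did so was not counted. In these comparisons 7122 (against CD4 cells) and 7324 (against CD8 cells) of 12820 genes were called, so the separation is not shown to be particular to these genes. Psmb9 had 129, 104 and 139 CPM in CD8 controls and 137, 125 and 124 CPM in CD8 cells labelled Ebi3 -/-. In CD4 cells it had 125, 187 and 230 CPM in controls and 162.5, 213 and 158 CPM with the Ebi3 -/- label. All 6 Treg-labelled libraries, at 39.9 to 73.6 CPM, lay below all 12 others, and the 2 other populations overlapped at the first CD4 control. The log2 fold change was −1.60 against CD4 cells (SE 0.151, 3.03-fold lower, edgeR adjusted p = 1.37e-08), −1.09 against CD8 cells (SE 0.153, 2.13-fold lower, edgeR adjusted p = 2.85e-06) and −0.51 in CD8 against CD4 cells (SE 0.114, edgeR adjusted p = 0.0071). The last did not pass within the controls (−0.56, edgeR adjusted p = 0.0564) or within the Ebi3 -/- groups (−0.46, edgeR adjusted p = 0.15).

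Psmb8, the inducible chymotrypsin-like subunit, had 347, 310 and 286 CPM in CD8 controls and 312, 265 and 294 CPM in CD8 cells with the Ebi3 -/- label. In CD4 cells it had 305, 349 and 396 CPM in controls and 388.5, 343 and 337 CPM with the Ebi3 -/- label, and in Treg-labelled cells 150, 166 and 166 CPM in controls and 164, 190 and 146 CPM with the Ebi3 -/- label. Again every Treg-labelled library lay below every other one. Psmb8 was 2.1-fold lower than in CD4 cells (log2 fold change −1.07, SE 0.093, edgeR adjusted p = 1.94e-10) and 1.79-fold lower than in CD8 cells (−0.84, SE 0.092, edgeR adjusted p = 1.22e-08). Its CD8 against CD4 value of −0.23 did not pass (edgeR adjusted p = 0.0854), except without the first CD4 control library (−0.29, edgeR adjusted p = 0.0069) and with the B cell covariate (−0.25, edgeR adjusted p = 0.0058). In that same covariate fit, Psmb9 no longer passed in CD8 against CD4 cells (−0.53, edgeR adjusted p = 0.0772).

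With the B cell covariate in the model of all 16 samples, Psmb8 and Psmb9 were −1.02 and −1.60 against CD4 cells and −0.78 and −1.09 against CD8 cells, and both passed. Psmb10, the inducible subunit with trypsin-like activity and the one encoded outside the MHC, did not follow them. It had 58.6 to 80.04 CPM in Treg-labelled, 58.9 to 89.96 CPM in CD8 and 70.6 to 86.95 CPM in CD4 libraries, all overlapping, with a log2 fold change of −0.12 (SE 0.118) against each of the other populations. Nlrc5, at 33.5 to 58.2 CPM over all libraries, likewise did not differ past the threshold between any 2 populations (0.04 against CD4 and −0.04 against CD8 cells).

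**Figure D4:**
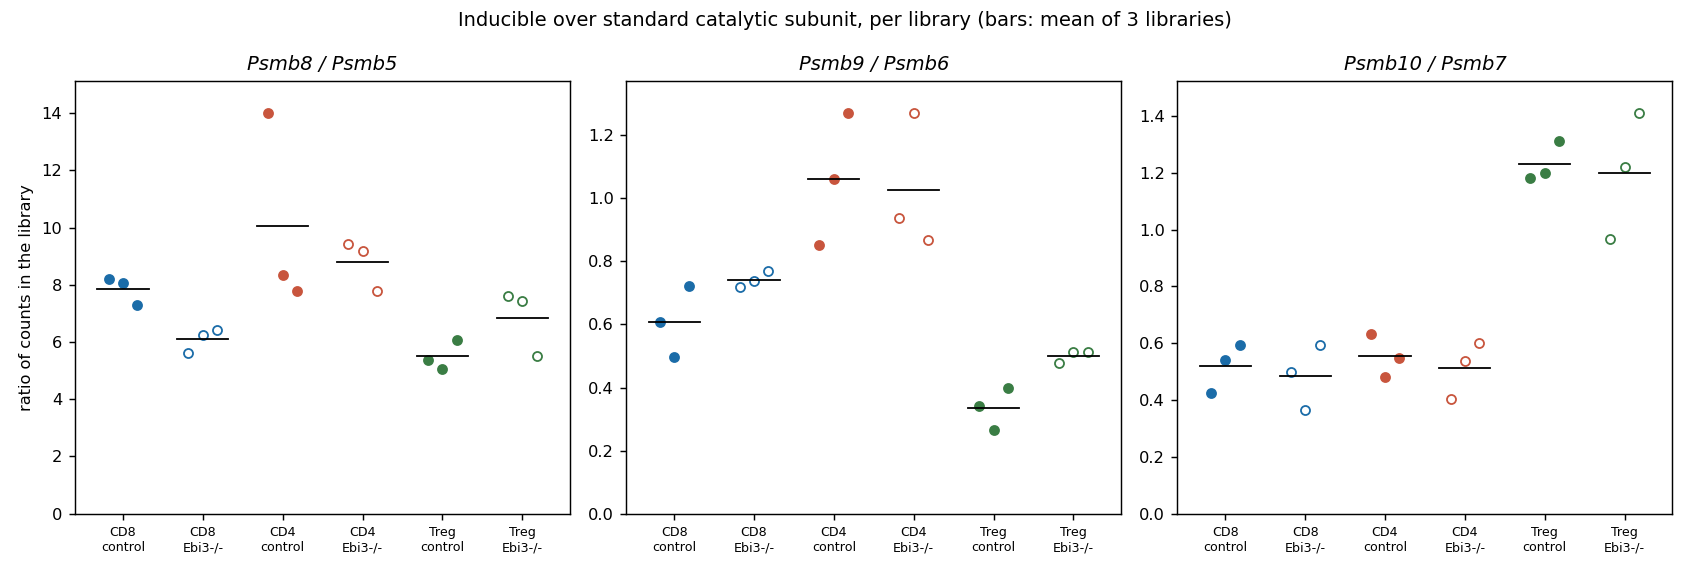
Ratio of the counts of each inducible catalytic subunit to those of the standard subunit it replaces (vertical axes, from 0) in each of the 18 libraries, by population and genotype; bars are means of 3 libraries. Treg-labelled libraries are highest for Psmb10 over Psmb7, and for Psmb9 over Psmb6 they lie below the CD4 libraries and reach the lowest CD8 library (0.496).

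Each inducible subunit takes the place of a standard one, Psmb8 of Psmb5, Psmb9 of Psmb6 and Psmb10 of Psmb7, so their counts were set against each other within a library as a description. Since tags are not scaled between genes, a ratio can be compared only across libraries. Psmb9 over Psmb6 was 0.496 to 0.77 in CD8, 0.852 to 1.27 in CD4 and 0.266 to 0.513 in Treg-labelled libraries, and CD4 libraries lay above all others. Psmb10 over Psmb7 was 0.365 to 0.594 in CD8, 0.403 to 0.634 in CD4 and 0.966 to 1.41 in Treg-labelled libraries, which lay above all others. Psmb8 over Psmb5 was 5.62 to 8.19 in CD8, 7.78 to 14 in CD4 and 5.07 to 7.61 in Treg-labelled libraries, so the CD8 libraries overlapped both others and the Treg-labelled ones lay below every CD4 library, with 18 to 103 counts of Psmb5 beneath it. The high Psmb10 ratio in Treg-labelled cells came with a low Psmb7: the standard subunit had 49.5 to 69.3 CPM there against 124.5 to 185.5 CPM in CD4 libraries.

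**Figure D5:**
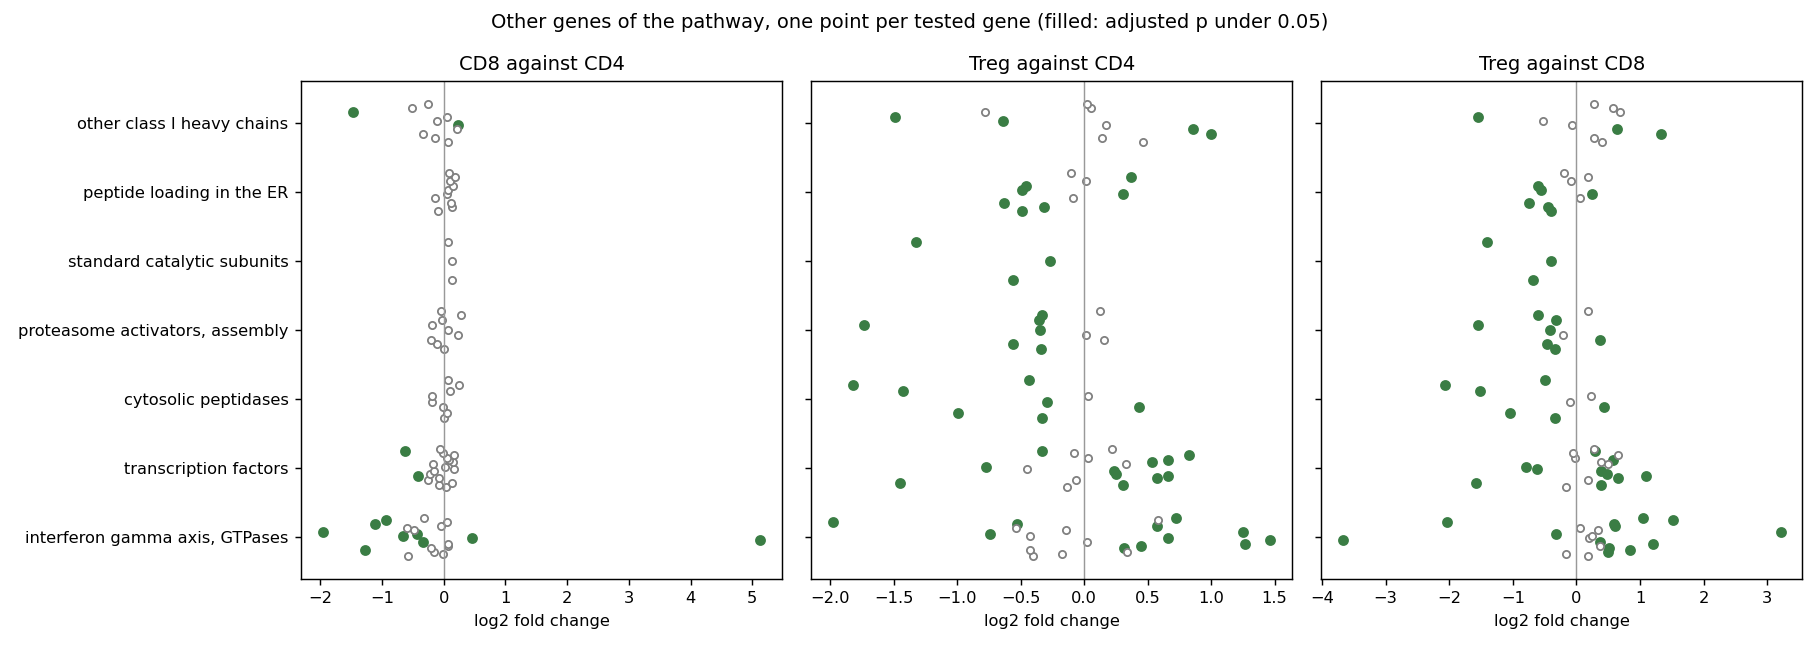
Log2 fold changes (horizontal axes, scaled per panel) of the tested genes of 7 related lists in the 3 comparisons of populations; filled points passed an adjusted p of 0.05. Proteasome and peptidase genes lie mostly below 0 in both comparisons of Treg-labelled cells, and transcription factors and interferon genes on both sides.

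Other proteasome genes were also mostly lower in Treg-labelled cells. The counts of this list and of those below stand beside the shares over all genes. These were 31.7% called higher and 23.8% lower against CD4 cells, and 32.2% and 24.9% against CD8 cells. In CD8 against CD4 cells they were 2.94% and 2.51%. All 3 standard catalytic subunits were lower than in CD4 cells, Psmb7 by a log2 fold change of −1.33 (SE 0.108), Psmb5 by −0.56 (SE 0.173) and Psmb6 by −0.27 (SE 0.088), and all 3 were lower than in CD8 cells (−1.40, −0.69 and −0.40). Their median was −0.56 against CD4 cells and −0.69 against CD8 cells, beside 0.08 and 0.07 over all genes. Of 9 tested proteasome activators and assembly factors, 6 were lower and 0 higher against CD4 cells, with a median of −0.34. They included the assembly chaperone Psmg1 (−1.74), the interferon-inducible activator Psme1 (−0.56), Psmg2 (−0.35) and the activator Psme4 (−0.35). Against CD8 cells 6 were lower and 1 higher (median −0.34), led by Psmg1 (−1.55), Psmg3 (−0.61), Psme1 (−0.46) and Psme4 (−0.42). Psmg1 had only 24 counts in the Treg-labelled controls together and 34 with the Ebi3 -/- label. Between CD8 and CD4 cells 0 of the 3 and 0 of the 9 passed in edgeR, with 0 and 3 at an unadjusted p under 0.05, and the medians were 0.13 and −0.03.

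Cytosolic peptidases, which trim or destroy proteasome products, had 6 of 8 lower and 1 higher in Treg-labelled than in CD4 cells (median −0.38), and 5 lower and 1 higher against CD8 cells (median −0.42). The oligopeptidase Thop1 led (−1.82 and −2.07), followed by the aminopeptidases Rnpep (−1.42 and −1.52) and Lap3 (−0.99 and −1.04) and by tripeptidyl peptidase Tpp2 (−0.44 and −0.50). The Thop1 values rested on few counts: 14 in the Treg-labelled controls together and 8 with the Ebi3 -/- label. Between CD8 and CD4 cells 0 of the 8 peptidases passed in edgeR, with 2 at an unadjusted p under 0.05 (median 0.03). Among 10 genes of peptide loading in the endoplasmic reticulum, 5 were lower and 2 higher than in CD4 cells (median −0.21), and 5 lower and 1 higher than in CD8 cells (median −0.29). The lower genes with the largest change were the lectin chaperone Canx (−0.63 and −0.74), the chaperone Hspa5 (−0.49 and −0.56) and the disulfide isomerase Pdia3 (−0.46 and −0.60), with Bcap31 beside them against CD4 cells (−0.49) and the lectin chaperone Calr against CD8 cells (−0.45). Between CD8 and CD4 cells 0 of the 10 passed in edgeR, with 1 at an unadjusted p under 0.05 (median 0.09).

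Of 19 further class I heavy chain genes, 10 passed the filter on low counts. In Treg-labelled against CD4 cells 2 were higher and 2 lower (median 0.10), and against CD8 cells 2 were higher and 1 lower (median 0.34). H2-T22, a nonclassical class I molecule recognised by some gamma delta T cells, was lower than in both (log2 fold changes −1.49, SE 0.15, and −1.55, SE 0.149), at 28.7 to 53.8 CPM against 81.8 to 144 CPM in the other libraries. H2-Q4 was higher (0.996 and 1.33), as was H2-Q6 (0.86 and 0.64), and H2-T10 was lower than in CD4 cells (−0.64). Between CD8 and CD4 cells H2-T23 was lower (−1.47) and H2-Q7 higher (0.24) in CD8 cells, with a median of −0.13 for the list. The H2-T23 value rested on few counts: 7 in the CD8 controls together and 38 in the CD4 controls, which overlapped (0.50 to 2.46 and 1.45 to 12.3 CPM). With the Ebi3 -/- label the counts were 26 and 37. These heavy chain genes have close relatives, and how the authors' counting shared reads among them is not given in the sources used here.

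Transcription factors of class I genes were called in both directions, as genes were in general. Over all genes 31.7% were called higher and 23.8% lower against CD4 cells, and 32.2% and 24.9% against CD8 cells. Of 18 tested, 8 were higher and 3 lower in Treg-labelled than in CD4 cells (median 0.23), and 7 higher and 3 lower than in CD8 cells (median 0.34). Ezh2, a repressive histone methyltransferase, was lower (−1.45 and −1.58), as was Nfyb, a subunit of the factor that binds CCAAT boxes (−0.77 and −0.79). Rfxank, a subunit of the X box factor, was higher against CD4 cells (0.83), Irf2 was higher against CD8 cells (0.65), and the corepressor Irf2bp2 was higher against both (0.66 and 1.09). Rfxank had only 31 counts in the Treg-labelled controls together and 26 with the Ebi3 -/- label. In CD8 against CD4 cells 0 were higher and 2 lower (median −0.04), among them Irf2bp2 (−0.42, SE 0.102, edgeR adjusted p = 0.0081).

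The interferon gamma axis, which drives the inducible subunits in many cells, was unequal among the populations. Ifng itself had 416 to 661 CPM in CD8, 31.1 to 55.6 CPM in Treg-labelled and 7.82 to 27.4 CPM in CD4 libraries, without overlap. The share of all genes that separated in this way was not counted. Relative to CD4 cells, CD8 cells had 2 of 20 tested genes higher and 7 lower (median −0.33): Ifng was higher by 5.13, while the GTPases Iigp1 (−1.96) and Gbp5 (−1.27) and the kinase Jak2 (−1.11) were lower. The median over all genes in that comparison was 0. Treg-labelled cells had 8 higher and 3 lower than CD4 cells (median 0.17), led by lower Socs1, a feedback inhibitor (−1.98), and higher Ifng (1.47), Gbp9 (1.27) and Iigp1 (1.25). Against CD8 cells they had 10 higher and 3 lower (median 0.37), led by Ifng (−3.66), Iigp1 (3.21), Socs1 (−2.03) and Tgtp1 (1.51). Between genotypes, edgeR called 0 of the 78 tested genes of these 7 lists in CD8, CD4 or Treg-labelled cells or in their mean, with 17, 6, 4 and 5 at an unadjusted p under 0.05.

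Likeness of pattern was described over the 12 CD4 and CD8 libraries, among the 7865 genes whose mean log2 CPM reached 4, by Pearson's r of log2 CPM, with no test. H2-K1 was most like Tbc1d22a (0.975) and Arhgef18 (0.959), B2m most like Apobec1 (0.964) and Ppm1m (0.958), and H2-D1 most like Unc93b1 (0.967) and Psap (0.963). Psmb9 was most like Nfkb1 (0.897) and Plagl2 (0.886), Psmb8 most like Neil3 and Extl3 (0.903 each), and Psmb10 most like Mrps18c (0.808) and Pigq (0.807). Tap1 was most like Ass1 (0.921) and Lpcat1 (0.892), Tap2 most like Pnrc1 (0.947) and Tsnax (0.92), Tapbp most like Kmt2d (0.945) and Narfl (0.902), and Nlrc5 most like Ankrd44 (0.882) and Siah2 (0.803). Within the set, the value was 0.88 between B2m and H2-K1 and 0.70 between Psmb8 and Psmb9, and it was 0.36 between Psmb9 and Tap1, which are read from the stretch shown above. After group means were removed it stayed at 0.84 for B2m and H2-K1, was 0.49 for Psmb8 and Psmb9, and was −0.26 for Psmb9 and Tap1.

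The annotated transcript ends of these genes were mostly not shared with other genes, by exact matches alone. Near matches were not searched and aligned reads were not examined. Within the last 500 bases of a transcript, 0% of 50-base windows of 8 members were found in another gene's transcripts, against 0.4% for H2-K1, shared with H2-D1, and 9.5% for H2-D1, spread over 80 genes. The annotated spans of Patl2, Gm20496 and Gm16156 cover the ends of B2m, Psmb8 and Psmb10 on the opposite strand, but 0 of their exon bases fall in the last 500 bases, and they had 1, 0 and 0 counts in all libraries together. Whether the counting used strand is not given in the sources used here.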

How the data were processed

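The authors deposited 1 table of raw counts per Ensembl gene for 18 libraries, made from QuantSeq 3' FWD libraries with molecular identifiers from 500 ng of total RNA, per the labels' protocols. The submitters' processing notes name UMI-tools 1.0.0, STAR 2.5.3a with GRCm38 (mm10), cutadapt 2.10, Subread 2.0.0 with featureCounts, and FastQC. Settings, annotation release and strand use: not given in the sources used here. Gene symbols were matched for 55141 of 55487 IDs. The 10 members and all lists were chosen with earlier results of these data known.

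Deposited counts entered edgeR 4.0.16 (R 4.3.3) as 6 group means, with TMM scaling, a filterByExpr minimum of 10, robust quasi-likelihood fits and Benjamini-Hochberg adjustment at 0.05. Libraries of a group that a chi-square test over genes with 20 or more summed counts could not tell apart were summed, which left 10 residual degrees of freedom and a common dispersion of 0.0106. The fit was tested on simulated data. DESeq2 1.42.0, other scalings, no filter, all libraries separate, a replicate block, covariates and each library left out were alternatives. SDs are not given where all values are. Named are all 10 members, up to 4 genes past the threshold with the largest change per pathway list and comparison, Ebi3, Foxp3, Cd4 and Cd8a to check labels, and 2 genes most like each member. Il2ra, Ikzf2, Tnfrsf18 and Ctla4 were named after their values were seen, and the B cell covariate was added then too. Counting error is larger in the Treg-labelled libraries, where 3 counts correspond to 2.83 to 3.82 CPM. Of 159 list genes 158 were matched. The values of 1 list gene are not reported here.

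Same-numbered libraries did not deviate together by the rule used. Among the 9 pairs of groups that share a population or a genotype, every correlation was over 0.1 in 0, so replicate numbers were not used as a block. Markers of NK and innate-like cells gave 100 to 125 CPM in CD8, 37.9 to 54.3 in CD4 and 46.0 to 61.6 in Treg-labelled libraries. Erythroid markers gave 634 to 1481, 755 to 1512 and 1192 to 1260 CPM.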

Additional observations from a re-analysis of the deposited data

How the results depend on the processing

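Between genotypes, 0 members passed under every alternative run in CD8, CD4 and Treg-labelled cells, in their mean and in the test of a difference among them. The 2 members called in CD8 against CD4 cells (Tap1 and Psmb9) became 0 within the control groups and 0 within the Ebi3 -/- groups, where Psmb9 was −0.56 and −0.46 (edgeR adjusted p = 0.0564 and 0.15). Leaving out 1 library at a time gave 1 to 3; Tap1 was lost without CD8 control 1 or 3, CD8 Ebi3 -/- 2 or 3, CD4 control 3, or CD4 Ebi3 -/- 1 or 3. The 5 members called in Treg-labelled against CD4 cells became 3 within the control groups (Tap1, Psmb8 and Psmb9), where B2m was 0.21 (edgeR adjusted p = 0.103) and H2-K1 0.20 (edgeR adjusted p = 0.148), and Tap1 did not pass within the Ebi3 -/- groups (−0.29, edgeR adjusted p = 0.0614). Without a filter H2-K1 no longer passed there (0.16, edgeR adjusted p = 0.0944). In Treg-labelled against CD8 cells the count was 4 to 5, Tap1 being added on library totals, without a filter (−0.30), with 18 separate libraries (−0.19) and within controls (−0.42). Psmb8 and Psmb9 passed in both Treg-labelled comparisons under every alternative run. The cause of these changes was not tested.

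With a replicate block the calls of members were 2, 5 and 4 in the 3 comparisons of populations, as without it. What same-numbered libraries share is not given in the labels. Among groups that share a population or a genotype, a library correlated best with its own number in 9 of 27 comparisons. Counts over all genes moved more. In CD8 cells the 1 gene called between genotypes became 407 without control replicate 3 and 375 without a filter. The count was 47 by DESeq2, 21 with separate libraries, 12 with the replicate block and 9 with RLE scaling. Leaving out Ebi3 -/- replicate 1, Ebi3 -/- replicate 2 or control replicate 1 gave 8, 3 or 2. Without control replicate 2 or Ebi3 -/- replicate 3 it was 0. It was also 0 with only the compared or only the CD4 and CD8 libraries, and with either covariate. In CD4 cells 0 became at most 17, in the mean of populations at most 3, and in the difference among populations at most 287. The 699 genes of CD8 against CD4 ranged from 404 to 988, the 7122 of Treg-labelled against CD4 from 5048 to 10749, and the 7324 against CD8 from 5202 to 11224. On library totals H2-D1 and Nlrc5 changed sign in Treg-labelled against CD4 cells (−0.02 and −0.06, neither called). Over all results, 1483 of 1600 alternative values kept their direction and call or stayed within their spread, 16 lost a call, 7 gained one, 94 moved and 0 reversed. Tap2 had 7 to 82 counts per library and 8.69 to 45.8 CPM among the CD4 libraries alone, and the part of depth in its wide intervals was not tested.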

Other observations

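MHC class II genes, which T cells of mice barely transcribe, were present in all libraries, with summed levels of 3623 to 4089 CPM in Treg-labelled, 2167 to 4167 CPM in CD8 and 2585 to 5249 CPM in CD4 libraries. The first CD4 control library was highest in class II genes (5249 CPM), in B cell markers (6896 CPM) and, among CD4 libraries, in H2-K1 (1298 CPM) and B2m (2099 CPM). It was lowest among CD4 libraries in Psmb9 (125 CPM), Psmb8 (305 CPM) and T cell genes (1408 CPM). Ciita, the class II counterpart of Nlrc5, was higher in Treg-labelled than in CD4 cells (log2 fold change 0.52, edgeR adjusted p = 0.0359) and CD8 cells (0.65, edgeR adjusted p = 0.0111), as was the peptide exchange chain H2-DMb1 (0.47 and 0.42), while Nlrc5 did not differ past the threshold. Of 10 class II genes, 2 were higher against CD4 and 3 against CD8 cells, with 0 lower, beside 31.7% and 32.2% of all genes called higher. The third, called against CD8 cells alone, was H2-Ob (0.53). Between genotypes, 9 of 10 class II genes were above 0 in CD8 cells (median 0.36) and 10 of 10 below 0 in CD4 cells (median −0.38), none past the threshold.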
